A study of Mus musculus with 7 samples.

Results

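Nuclear receptors are transcription factors, most of which are switched by small lipophilic ligands such as steroids, retinoids, thyroid hormone, bile acids and fatty acids. Expression of 42 of their genes, found by symbol in the deposited array table, was examined among 20719 genes with a symbol. The receptor genes Nr5a1, Nr5a2, Nr6a1 and Nr0b1 were not among the 42. Each of the 42 was measured by 1 transcript cluster, the probe group that stands for a gene on this array. The cells were GFP-positive adrenocortical cells, as the labels call them, of 6-week-old male mice on the C57BL/6J background. Wnt+ cells (3 arrays) came from TCF/Lef:H2B-GFP mice, in which multimerised TCF/LEF sites with a minimal Hspa1b promoter drive a nuclear GFP and thus read canonical Wnt signalling. SF1+ cells (4 arrays) came from Sf1:eGFP mice, in which a BAC fragment with the Nr5a1 gene drives GFP. Each sort pooled 10 adrenals, so an array stands for a sort and not for an animal, and no untreated or unsorted adrenal was measured. Each reporter is its own mouse line, so line and cell population cannot be told apart.

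The adrenal cortex makes glucocorticoids and mineralocorticoids, whose own receptors, the glucocorticoid receptor gene Nr3c1 and the mineralocorticoid receptor gene Nr3c2, belong to this family. The NR4A receptors need no ligand and are induced as immediate early genes by ACTH and angiotensin II, which drive steroid output. Retinoid receptors pair with RXR, as do thyroid hormone, vitamin D, PPAR, LXR and FXR receptors. The REV-ERB and ROR receptors form a loop of the circadian clock.

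The groups carry their label names although Nr5a1, the gene behind the SF1+ gate, was higher in Wnt+. It was at 6.87, 7.61 and 7.41 in Wnt+ replicates 1 to 3, against 6.41, 5.38, 5.44 and 5.75 in SF1+ replicates 1 to 4 (log2 values). The difference was 1.55 (SE 0.29, limma adjusted p = 0.0938). Cortex and other cell markers moved between the sorts as well. The mean of 18 steroidogenic cortex markers (Nr5a1 among them) was 8.01 to 8.68 in Wnt+ arrays and 6.95 to 7.56 in SF1+ arrays. All 18 were higher, 17 of them at an unadjusted limma p under 0.05 (94.4%, against 7.61% of all genes). The mean of 25 endothelial markers was 4.91 to 6.79 in Wnt+ arrays and 6.94 to 7.50 in SF1+ arrays. All 25 were lower, 21 of them at an unadjusted limma p under 0.05 (84%, against 7.89% of all genes). The mean of 16 lymphocyte markers was 2.75 to 2.81 in Wnt+ arrays and 3.72 to 5.02 in SF1+ arrays, although the B-cell marker Cd79a (2.65 in Wnt+ and 2.74 in SF1+) was below the array medians of 3.13 to 3.23. The mean of 10 plasmacytoid dendritic markers was 4.73 to 4.93 in Wnt+ arrays and 6.33 to 6.79 in SF1+ arrays, and that of 19 macrophage markers 6.37 to 6.97 and 6.46 to 7.95. The mean of 18 chromaffin markers was 4.94 to 5.93 in Wnt+ arrays and 4.02 to 4.97 in SF1+ arrays. In sorted pools such as these, fewer cells of a type and less RNA per cell cannot be told apart.

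None of the 42 receptors passed an adjusted p of 0.05 in limma over all genes, where 53 genes passed (0.256%, and 1 to 312 genes when single arrays were dropped). By the unadjusted p-values of the authors' deposited table, after the same adjustment, 0 receptors and 0 genes in all passed. At an unadjusted p under 0.05, 6 receptors (14.3%) differed, against 15.5% of all genes. Of these, 3 were higher in Wnt+ (Nr0b2, Nr1h4 and Nr1d1, against 7.61% of all genes) and 3 were lower (Rarb, Rarg and Nr3c1, against 7.89%). Complete separation of the arrays was seen for 6 receptors (14.3%, against 14.1% of all genes), with Nr0b2, Nr1h4 and Nr1d1 above (against 7.04%) and Rarb, Rarg and Pparg below (against 7.07%). These shares lie near the background and are no result about the family. The p-values measure the spread between sorts. The median difference, Wnt+ minus SF1+, was 0.02 over the receptors and 0.02 over all genes. A log2 difference of at least 1 was found in 4 receptors (9.52%, against 4.30% of all genes), namely Rarb, Nr0b2, Nr1d1 and Nr1h4. In 36 receptors the difference was under 0.5, and in 20 the whole 95% interval lay within 0.5 of zero. Those 20 were Nr2c2, Ppard and the 18 receptors whose mean lay below the median of all genes. Among these 18 the largest difference was 0.15, and their dim signal limits what a narrow interval shows. Shares over all genes were not computed for these counts, which are no result about the family.

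**Figure D1:**
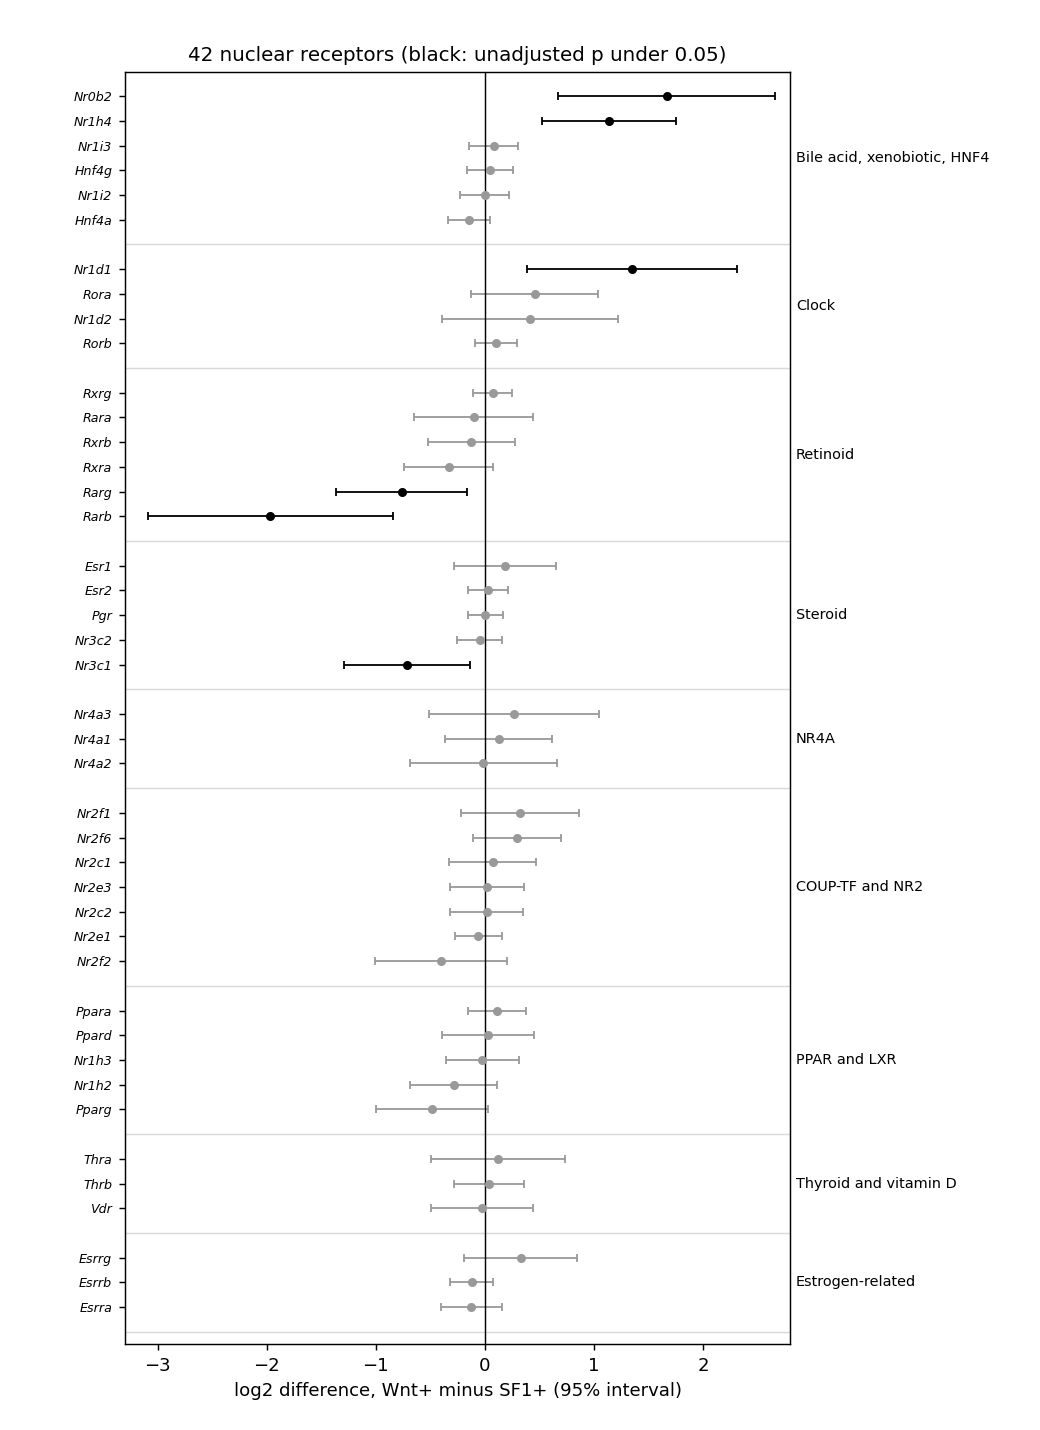
Log2 difference (Wnt+ minus SF1+, horizontal axis) of the 42 receptors, grouped by role, with 95% intervals from the limma fit. The 6 black points have an unadjusted p under 0.05, from 1.67 for Nr0b2 to -1.97 for Rarb, and none passed over all genes.

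The bile acid receptor FXR, encoded by Nr1h4, and the corepressor SHP, encoded by Nr0b2, were both higher in Wnt+. In liver, bile acids acting on FXR induce SHP, which has no DNA-binding domain and represses other receptors. Nr1h4 was at 3.40, 4.53 and 3.68 in Wnt+ replicates 1, 2 and 3, against 2.94, 2.65, 2.63 and 2.71 in SF1+ replicates 1 to 4. Every Wnt+ array lay above every SF1+ array, and the Wnt+ arrays spread more widely, with means of 3.87 ± 0.59 (SD, n = 3) in Wnt+ and 2.73 ± 0.15 (SD, n = 4) in SF1+. The difference was 1.14 (SE 0.26, 95% interval 0.52 to 1.76, limma adjusted p = 0.126), a fold of 2.20. All SF1+ arrays lay below the array medians of 3.13 to 3.23, so this fold was taken against a dim group. Nr0b2 was at 3.98, 5.56 and 5.23 in Wnt+ replicates 1, 2 and 3, against 3.87, 3.20, 2.71 and 3.25 in SF1+ replicates 1 to 4. Here Wnt+ replicate 1 was close above SF1+ replicate 1, while the other Wnt+ arrays were far above all SF1+ arrays. Its difference was 1.67 (SE 0.42, 95% interval 0.67 to 2.66, limma adjusted p = 0.144), a fold of 3.17. Without Wnt+ replicate 1 it was 2.14 and passed (limma adjusted p = 0.0448, where leaving out any single array gave 0.0448 to 0.307). In Nr0b2, Nr1h4 and Nr1d1, the highest value of all 7 arrays was that of Wnt+ replicate 2, which also had the highest cortex marker mean (8.68) and the lowest endothelial mean (4.91). The part of cell composition in these differences was not tested.

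The promoter windows of Nr0b2 and Nr1h4 are shown because these genes form the FXR and SHP pair and were the receptors with the smallest p among those higher in Wnt+. They are RefSeq sequences of the GRCm38.p6 build, running from 250 bases before to 50 bases after the annotated start. Capitals in Nr0b2 mark CACGTG, the E-box bound by clock proteins, and TCAAGG, a core bound by SF1 and its relative LRH-1. Capitals in Nr1h4 mark AGGTCA, the core of most nuclear receptor sites, which lies here on the opposite strand as TGACCT. The Nr0b2 window is chr4:133553126-133553425 on the plus strand, and the Nr1h4 window is chr10:89506609-89506908 on the minus strand.
Nr0b2: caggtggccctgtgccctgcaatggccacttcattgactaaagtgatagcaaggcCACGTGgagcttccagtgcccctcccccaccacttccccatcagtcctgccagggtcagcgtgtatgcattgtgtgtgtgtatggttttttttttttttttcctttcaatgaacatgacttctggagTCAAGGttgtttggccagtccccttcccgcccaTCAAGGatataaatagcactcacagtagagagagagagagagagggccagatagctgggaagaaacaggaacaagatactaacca
Nr1h4: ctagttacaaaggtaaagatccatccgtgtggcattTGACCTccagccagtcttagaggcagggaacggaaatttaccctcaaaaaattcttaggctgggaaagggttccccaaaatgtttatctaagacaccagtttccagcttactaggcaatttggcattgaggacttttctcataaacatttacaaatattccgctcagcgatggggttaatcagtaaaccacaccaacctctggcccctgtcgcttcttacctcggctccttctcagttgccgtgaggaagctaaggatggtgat
In the Nr0b2 window CACGTG begins 195 bases before the start, and TCAAGG begins 68 and 35 bases before it. In the Nr1h4 window the match begins 214 bases before the start. Searched on both strands, CACGTG was found in 7.15% of 32851 windows of all genes and in 6 of 58 windows of the receptors. TCAAGG was found in 14.4% of all windows and in 8 of the receptors' windows. At least 2 matches of it were found in 1.32% of all windows and, among the receptors, in Nr0b2 alone. The TCAAGG motif was added after the Nr0b2 sequence had been read. AGGTCA was found in 16.3% of all windows and in 9 of the receptors' windows, those of Nr1d2, Nr1h4, Pparg, Rara, Rarg, Rxra, Rxrg and Thrb. AAAGGTCA, the site of NR4A monomers, contains AGGTCA and was found in 1.51% of all windows and in those of Rxra and Rxrg. Windows were found for 39 of the 42 receptors. A match describes letters and does not show binding.

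The remaining receptors of bile acid, xenobiotic and liver gene control were dim and near equal. The pregnane receptor gene Nr1i2 differed by 0.00 (95% interval -0.23 to 0.22), and the constitutive androstane receptor gene Nr1i3 by 0.08. The hepatocyte nuclear factor genes Hnf4a and Hnf4g differed by -0.15 and 0.05. Their means lay between 2.07 and 2.66 in the 2 groups.

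Among the clock receptors, Nr1d1, which encodes the repressor REV-ERB alpha, was higher in Wnt+. It was at 8.53, 8.77 and 8.35 in Wnt+ replicates 1, 2 and 3, against 8.30, 6.76, 6.54 and 7.21 in SF1+ replicates 1 to 4. The Wnt+ arrays lay close together, and SF1+ replicate 1 was nearly as high as they were. The difference was 1.35 (SE 0.41, 95% interval 0.39 to 2.31, limma adjusted p = 0.189), a fold of 2.54. It passed only without SF1+ replicate 1, where it was 1.71 (limma adjusted p = 0.0448, against 0.386 at most when another array was dropped). Its paralog Nr1d2 had the same order of SF1+ replicate 1 above the other SF1+ arrays, at 7.14, 6.63 and 6.03 in Wnt+ replicates 1 to 3 and 6.78, 5.65, 6.33 and 5.96 in SF1+ replicates 1 to 4. Its groups overlapped, and the difference was 0.42 (SE 0.34, limma adjusted p = 0.635). Rora, an activator that competes with REV-ERB for the same sites, differed by 0.46 (SE 0.25), and by 0.14 without Wnt+ replicate 2, where it was at 6.09 against 4.87 to 5.24 in all other arrays. Rorb was dim (2.40 in Wnt+ and 2.29 in SF1+) and differed by 0.11.

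Of 15 other clock genes, 5 were higher (33.3%, against 7.61% of all genes) and 0 lower (against 7.89%) at an unadjusted limma p under 0.05, and 0 passed over all genes. Per2, a core repressor of the clock, differed by 1.25 (SE 0.29, limma adjusted p = 0.127), and was at 5.03, 4.86 and 4.50 in Wnt+ replicates 1 to 3 against 4.29, 3.10, 3.50 and 3.27 in SF1+ replicates 1 to 4. SF1+ replicate 1 again stood highest of its group, as it did for Nr1d1. That array also had the highest cortex marker mean of its group (7.56, against 6.95 to 7.23 in the other SF1+ arrays) and the lowest endothelial (6.94) and lymphocyte (3.72) means, whose part was not tested. Cry2, a partner of the PER proteins, differed by 0.79, the clock repressor gene Ciart by 0.43, the output regulators Tef by 0.36 and Nfil3 by 0.56. The list held 12 positive and 3 negative differences, with a median of 0.29. The negative ones were Bhlhe40 (-0.82, SE 0.47), Arntl (-0.30, SE 0.26) and Per1 (-0.03, SE 0.15). The labels do not give the hour of collection, and its part was not tested either.

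**Figure D2:**
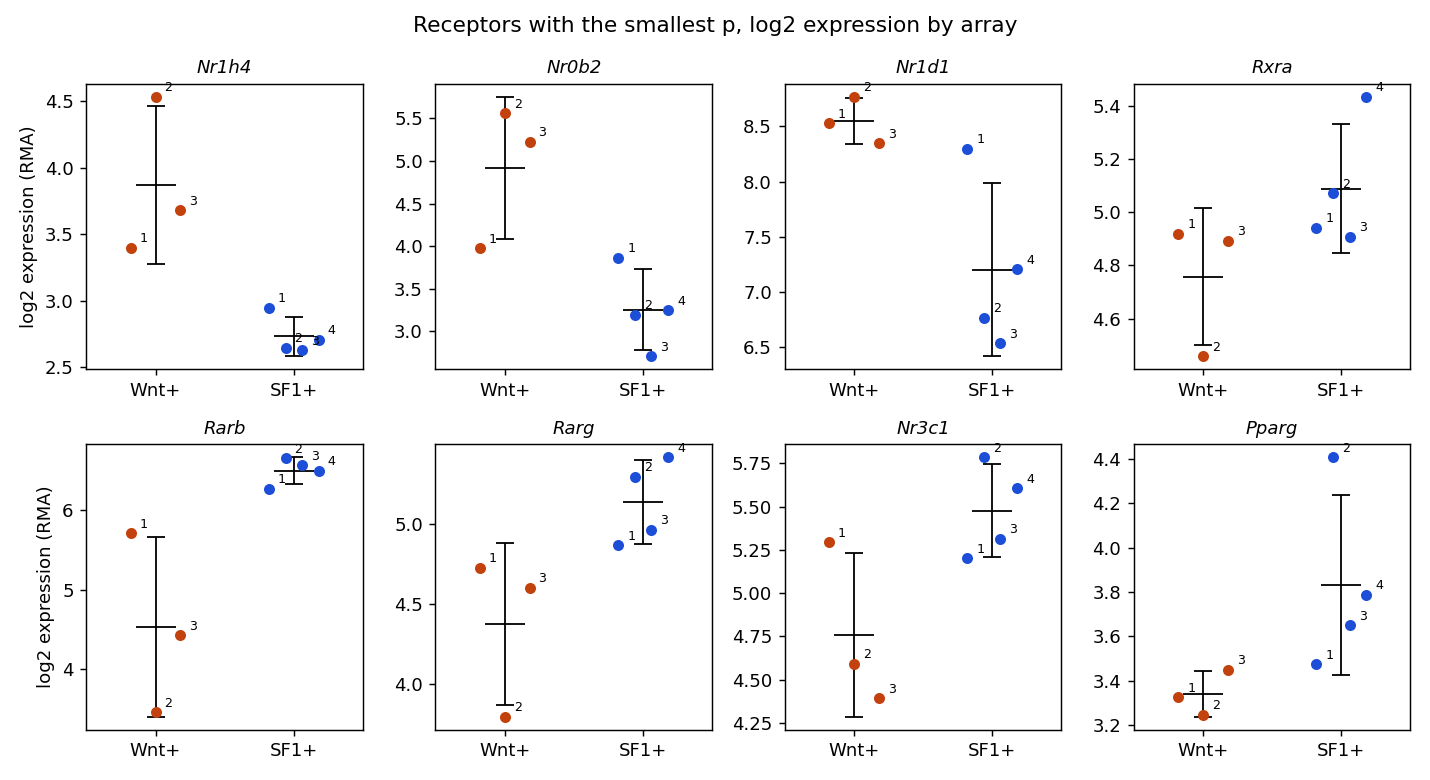
Log2 expression of the 8 receptors with the smallest limma p, with Wnt+ (left, orange) and SF1+ (right, blue). Points are arrays with their replicate number, and bars are the mean and SD. The groups do not overlap for Nr1h4, Nr0b2, Nr1d1, Rarb, Rarg and Pparg, and do overlap for Nr3c1 and Rxra.

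Of the retinoic acid receptors, Rarb and Rarg were lower in Wnt+ at an unadjusted p only, and Rara was near equal. Rarb, a receptor gene that retinoic acid itself induces, had the largest difference of the 42. It was at 5.71, 3.46 and 4.43 in Wnt+ replicates 1, 2 and 3, against 6.27, 6.66, 6.57 and 6.50 in SF1+ replicates 1 to 4. All Wnt+ arrays were below all SF1+ arrays, which lay close together, while the Wnt+ arrays spread over more than 2 log2 units. The difference was -1.97 (SE 0.47, 95% interval -3.09 to -0.85, limma adjusted p = 0.133), with SF1+ 3.91-fold above Wnt+. Without Wnt+ replicate 1 it was -2.55 and passed (limma adjusted p = 0.0285, and up to 0.291 when another array was dropped). Rarg was at 4.73, 3.79 and 4.60 in Wnt+ replicates 1, 2 and 3, against 4.87, 5.30, 4.96 and 5.42 in SF1+ replicates 1 to 4. The groups did not overlap, although Wnt+ replicate 1 was close to SF1+ replicate 1, and the difference was -0.76 (SE 0.25, limma adjusted p = 0.223). Rara was near equal at 6.16 ± 0.39 (SD, n = 3) in Wnt+ and 6.27 ± 0.31 (SD, n = 4) in SF1+, a difference of -0.10 (95% interval -0.65 to 0.45). For the shared partners, Rxra differed by -0.33 (95% interval -0.74 to 0.08), Rxrb by -0.12 (95% interval -0.52 to 0.27) and the dim Rxrg by 0.07.

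Rarb and Rarg had their lowest value in Wnt+ replicate 2 and their highest Wnt+ value in replicate 1. The endothelial marker mean had the same order, 6.79, 4.91 and 6.07 in Wnt+ replicates 1, 2 and 3, against 6.94 to 7.50 in SF1+ arrays, and its part in the result was not tested. Of 16 genes of retinoid handling and response, 1 was higher (6.25%, against 7.61% of all genes) and 3 lower (18.8%, against 7.89%) at an unadjusted limma p under 0.05, and 0 passed over all genes. The list held 8 positive and 8 negative differences, with a median of 0.00. Aldh1a2, which makes retinoic acid, differed by 1.41 (SE 0.39, limma adjusted p = 0.164) and was at 4.74, 6.20 and 5.58 in Wnt+ replicates 1 to 3 against 4.46, 4.30, 3.41 and 4.22 in SF1+ replicates 1 to 4, so the groups did not overlap. The 3 lower genes, all of which retinoic acid can induce, were the retinaldehyde reductase gene Dhrs3 (-1.38), the transglutaminase gene Tgm2 (-1.35) and the retinoic acid hydroxylase gene Cyp26b1 (-0.83). Other retinoid genes did not share that direction, with differences of 0.83 for the binding protein gene Crabp1 (SE 0.35), 0.40 for Rarres2 (SE 0.46) and -0.02 for the hydroxylase gene Cyp26a1 (SE 0.07).

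Of the steroid receptors, Nr3c1 was lower in Wnt+ and the others were near equal. Nr3c1 was at 5.29, 4.59 and 4.39 in Wnt+ replicates 1, 2 and 3, against 5.20, 5.78, 5.31 and 5.61 in SF1+ replicates 1 to 4. Wnt+ replicate 1 lay within the SF1+ arrays, and the other Wnt+ arrays lay below them. The difference was -0.72 (SE 0.24, 95% interval -1.29 to -0.14, limma adjusted p = 0.229). Nr3c2 was dim in all 7 arrays, at 2.57, 2.44 and 2.65 in Wnt+ replicates 1 to 3 and 2.53, 2.60, 2.72 and 2.55 in SF1+ replicates 1 to 4. Its difference was -0.05 (95% interval -0.25 to 0.16). The estrogen receptor genes Esr1 and Esr2 differed by 0.19 and 0.03, and the progesterone receptor gene Pgr by 0.01. Esr2 (2.36 in Wnt+ and 2.34 in SF1+) and Pgr (2.34 in both) were dim like Nr3c2, which limits what their near equality shows.

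Of 19 genes of glucocorticoid response and receptor chaperoning, 2 were higher (10.5%, against 7.61% of all genes) and 1 lower (5.26%, against 7.89%) at an unadjusted limma p under 0.05, and 0 passed over all genes. Fkbp4, a cochaperone that promotes glucocorticoid receptor activity, differed by 1.02 (SE 0.20, limma adjusted p = 0.0987) and averaged 6.95 ± 0.31 (SD, n = 3) in Wnt+ and 5.93 ± 0.27 (SD, n = 4) in SF1+. The cell cycle inhibitor Cdkn1c was higher by 0.83, and the kinase Sgk1 had a difference of -0.79. The induced feedback gene Fkbp5 differed by -0.40 (SE 0.36) and Tsc22d3 by -0.30 (SE 0.23). Fkbp5 and Tsc22d3 did not differ beyond their spread, while Dusp1 of the same list differed by -0.51 (SE 0.22). For Sgk1 and Dusp1 all Wnt+ arrays lay below all SF1+ arrays (against 7.07% of all genes). For Fkbp4 and Cdkn1c they lay above (against 7.04%). The list held 10 positive and 9 negative differences.

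The NR4A genes were bright in every array and did not separate the sorts. Nr4a1, which encodes NUR77, was at 9.63, 8.78 and 9.32 in Wnt+ replicates 1, 2 and 3, against 9.28, 9.01, 8.92 and 9.26 in SF1+ replicates 1 to 4. The Wnt+ arrays lay on both sides of the SF1+ arrays, with a difference of 0.13 (SE 0.21, 95% interval -0.37 to 0.62, limma adjusted p = 0.836). Nr4a2, which encodes NURR1, was at 7.54, 7.37 and 6.76 in Wnt+ replicates 1 to 3 and at 7.75, 7.29, 7.24 and 6.67 in SF1+ replicates 1 to 4. The ranges were nearly the same, and the difference was -0.01 (SE 0.29, 95% interval -0.69 to 0.66). Nr4a3, which encodes NOR1, was at 7.48, 7.67 and 6.75 in Wnt+ replicates 1 to 3 and at 7.18, 7.41, 7.25 and 6.28 in SF1+ replicates 1 to 4, a difference of 0.27 (SE 0.33, 95% interval -0.51 to 1.05). Nr4a2 and Nr4a3 were lowest in the same array of each group, Wnt+ replicate 3 and SF1+ replicate 4. The same arrays had the lowest values of the AP-1 gene Fosl1, at 3.19 in Wnt+ replicate 3 and 3.03 in SF1+ replicate 4. It was at 4.85 to 6.00 in the others, which was noticed after its values were seen. Other immediate early genes went both ways in these arrays. Fosl2, Ier3 and Egr2 were also lowest of their group there, whereas Fos, Jun, Ier2, Klf2, Atf3, Btg2, Egr1 and Dusp1 were highest. Nr4a1 was not low there.

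Of the other immediate early genes, all 18 measured had a negative difference, with a median of -0.41. At an unadjusted limma p under 0.05, 0 were higher (against 7.61% of all genes) and 3 lower (16.7%, against 7.89%), and 0 passed over all genes. The 3 were Ier5 (-1.08, SE 0.24, limma adjusted p = 0.121), the stress factor gene Atf3 (-0.47) and Klf4 (-0.65). The mean of the list was 7.67, 7.19 and 7.50 in Wnt+ replicates 1 to 3, against 7.85 to 7.91 in SF1+ arrays. The endothelial marker mean had the same order within Wnt+ (6.79, 4.91 and 6.07) and was likewise higher in all SF1+ arrays (6.94 to 7.50), and its part was not tested. The NR4A differences of -0.01 to 0.27 stood beside this shift, and the difference between the groups of genes was not tested.

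**Figure D3:**
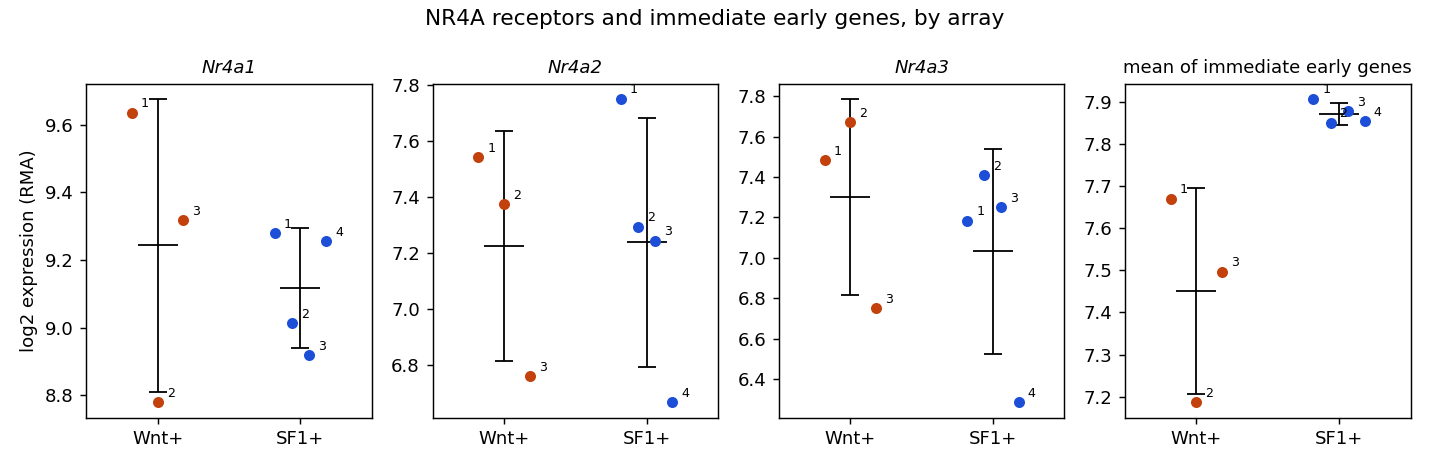
Log2 expression of Nr4a1, Nr4a2 and Nr4a3 and the mean of 18 immediate early genes, with Wnt+ (left, orange) and SF1+ (right, blue). Points are arrays with their replicate number, and bars are the mean and SD. The NR4A ranges overlap, whereas the list mean was 7.19 to 7.67 in Wnt+ and 7.85 to 7.91 in SF1+.

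Among the COUP-TF and related orphan receptors, Nr2f2, which encodes COUP-TFII of venous endothelium and stroma, was at 7.04, 6.05 and 7.14 in Wnt+ replicates 1 to 3, against 7.09, 7.11, 7.19 and 7.20 in SF1+ replicates 1 to 4. Only Wnt+ replicate 2 stood apart, and the difference of -0.41 (95% interval -1.01 to 0.20) was -0.06 without it. That array also had the lowest endothelial (4.91) and capsule and fibroblast marker means (4.21, in a list that holds Nr2f2 itself, against 5.13 and 5.34 in the other Wnt+ arrays and 4.22 to 4.92 in SF1+). Its paralog Nr2f1 differed by 0.32 (95% interval -0.22 to 0.86) and Nr2f6 by 0.30 (95% interval -0.10 to 0.70). The testicular receptor genes Nr2c1 and Nr2c2 differed by 0.07 and 0.02, the neural stem cell regulator Nr2e1 by -0.06 and the photoreceptor regulator Nr2e3 by 0.02. Of these, Nr2c1, Nr2e1 and Nr2e3 were dim.

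The lipid-sensing receptors differed little. Pparg, the adipocyte regulator, was at 3.33, 3.25 and 3.45 in Wnt+ replicates 1 to 3, against 3.47, 4.41, 3.65 and 3.79 in SF1+ replicates 1 to 4. The groups did not overlap, but Wnt+ replicate 3 and SF1+ replicate 1 were almost equal, and the difference was -0.49 (SE 0.22, limma adjusted p = 0.348). Without SF1+ replicate 2 it was -0.30. Ppara and Ppard, which promote fatty acid use, differed by 0.11 and 0.03. The oxysterol receptor LXR is encoded by Nr1h2, which differed by -0.29 (95% interval -0.68 to 0.11), and Nr1h3, which differed by -0.02 (95% interval -0.36 to 0.31). Ppara and Nr1h3 were dim.

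Of 14 lipid genes that LXR can induce, 1 passed over all genes with limma, the fatty acid synthase gene Fasn, which rose by 0.80 (SE 0.10, limma adjusted p = 0.0495) to 4.60 ± 0.16 (SD, n = 3) in Wnt+, against 3.80 ± 0.10 (SD, n = 4) in SF1+. That call lay at the threshold and was lost under most alternatives, among them the replicate block (limma adjusted p = 0.272), centring on array medians (0.0656) and leaving out any array other than Wnt+ replicate 1 (0.0605 to 0.158), in a range of 0.0380 to 0.272 over all alternatives. At an unadjusted p under 0.05, 4 were higher (28.6%, against 7.61% of all genes) and 1 lower (7.14%, against 7.89%). The phospholipid enzyme Lpcat3 was higher by 0.80 and the desaturase Scd2 by 1.28. Mylip, an LXR target that degrades the LDL receptor, had a difference of -1.47 (SE 0.27, limma adjusted p = 0.0871), the opposite direction. The sterol exporter Abca1 was higher by 0.40, while Abcg1, also on the list, differed by -0.68 (SE 0.32) and Srebf1 by 0.21 (SE 0.17). The list held 10 positive and 4 negative differences. Of 21 targets of PPAR and estrogen-related receptors, 8 were higher (38.1%, against 7.61% of all genes) and 1 lower (4.76%, against 7.89%) at an unadjusted limma p under 0.05, and 0 passed over all genes. The list held 13 positive and 8 negative differences, the negative ones including the PPAR targets Pdk4 (-0.51, SE 0.37), Cd36 (-0.42, SE 0.36) and Plin2 (-0.24, SE 0.22). Those higher included the fatty acid oxidation genes Cpt1a (0.50), Hadha (0.50), Acadm (0.99) and Hadhb (0.62) and the lipase inhibitor Angptl4 (0.47), while Fabp4, also an endothelial gene, had a difference of -1.05. The estrogen-related receptors themselves differed by -0.13 for Esrra, -0.12 for Esrrb and 0.33 for Esrrg, each with an interval that included 0. Esrra and Esrrb were dim.

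Thyroid hormone and vitamin D receptors were near equal. Thra was at 5.34, 5.35 and 6.09 in Wnt+ replicates 1 to 3 and at 5.25, 5.19, 5.47 and 5.98 in SF1+ replicates 1 to 4, a difference of 0.12 (95% interval -0.50 to 0.74). The highest Thra values were those of Wnt+ replicate 3 and SF1+ replicate 4, the arrays in which Nr4a2 and Nr4a3 were lowest. Thrb, a marker of the mouse adrenal X-zone, was dim and differed by 0.04 (95% interval -0.29 to 0.36), and Vdr by -0.03 (95% interval -0.50 to 0.44). Vdr lay just below the median of all genes. Of 11 genes of thyroid hormone handling and response, 2 were higher (18.2%, against 7.61% of all genes) and 0 lower (against 7.89%) at an unadjusted limma p under 0.05, and 0 passed over all genes. They included the malic enzyme gene Me1 (1.23, SE 0.24, limma adjusted p = 0.105). Thrsp, which thyroid hormone induces in liver, had a difference of -1.35 in the opposite direction (SE 0.58, limma adjusted p = 0.333).

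Of 20 coactivators and corepressors that receptors share, 2 were higher (10.0%, against 7.61% of all genes) and 0 lower (against 7.89%) at an unadjusted limma p under 0.05, and 0 passed over all genes. The corepressor Nrip1 was higher by 0.36 and the deacetylase Hdac3, a partner of REV-ERB and NCOR, by 0.55. In 4 genes all Wnt+ arrays lay below all SF1+ arrays (against 7.07% of all genes). They were the coactivator genes Ncoa3 (-0.84, SE 0.37), Crebbp (-0.12) and Ppargc1b (-0.11) and the corepressor complex gene Tbl1xr1 (-0.29). The list median was 0.01.

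The Wnt+ arrays varied among themselves more than the SF1+ arrays in 23 of 42 receptors (54.8%), near the 55.1% of all genes. In Rarb, Nr1h4, Nr2f2 and Rora the SD was 1.13, 0.59, 0.60 and 0.56 in Wnt+, against 0.17, 0.15, 0.06 and 0.12 in SF1+. In Nr1d1 and Pparg it ran the other way, with 0.21 and 0.10 in Wnt+ against 0.78 and 0.41 in SF1+. Of the receptors, 31 (73.8%) had their highest or lowest Wnt+ value in replicate 2, where 67.3% of all genes did. For replicate 1 the shares were 64.3% of receptors and 65.4% of all genes, and for replicate 3 they were 61.9% and 67.3%. With 3 arrays, each is the highest or lowest in most genes by construction.

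**Figure D4:**
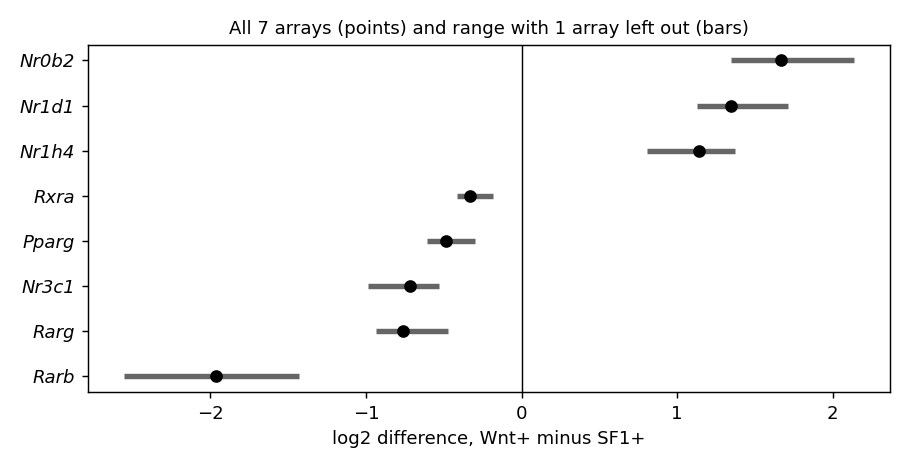
Log2 difference (Wnt+ minus SF1+) of the 8 receptors with the smallest p. Points use all 7 arrays, and bars span the values with 1 array left out in turn. No bar crosses 0, and that of Rarb runs from -2.55 to -1.43.

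The authors' deposited table also holds, for the same genes, fold changes and p-values from 4 pairs of Bio and Vehicle, taken from tumor cell lines of the mouse adrenal cortex. Its header does not say what Bio is, and no sample values of it were used here. By the authors' deposited table, 22 of the 42 receptors (52.4%) had a paired p under 0.05, against 35.5% of all genes. Higher with Bio were 6 (14.3%, against 18.2% of all genes), and lower were 16 (38.1%, against 17.3%). After Benjamini-Hochberg adjustment of the p-values in the authors' deposited table over all genes, 14 receptors passed (33.3%, against 18.9%), 4 higher (9.52%, against 9.82%) and 10 lower (23.8%, against 9.06%).

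In the authors' deposited table the strongest falls with Bio were those of Nr2f1 (fold 0.499, adjusted p = 0.0369), Nr0b2 (fold 0.554, adjusted p = 0.0228) and Rorb (fold 0.574, adjusted p = 0.0382). In the authors' deposited table Nr1h2 (fold 0.663), Nr3c1 (fold 0.732), Rora (fold 0.742), Rara (fold 0.760), Nr2f2 (fold 0.827), Thra (fold 0.870) and Nr2c2 (fold 0.886) also fell. Rarb (fold 1.41), Nr2c1 (fold 1.36), Nr1h4 (fold 1.33) and Nr1h3 (fold 1.30) rose in the authors' deposited table. Of the NR4A genes, the authors' deposited table gave folds of 0.778 for Nr4a1, 1.33 for Nr4a2 and 0.814 for Nr4a3, none past the adjusted threshold (adjusted p of 0.123, 0.0682 and 0.136). Set beside the sorted cells, where none of the 42 receptors passed over all genes, Nr1h4 was higher and Nr3c1 lower in both. Nr0b2 was higher in Wnt+ cells but fell with Bio, and Rarb was lower in Wnt+ cells but rose with Bio, per the authors' deposited table. Rarg was lower in both, but its fold of 0.947 in the authors' deposited table did not pass (adjusted p = 0.115). Nr1d1 did not follow, with a fold of 1.01 (paired p = 0.834) in the authors' deposited table. The experiments used different cells and had separate tests.

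**Figure D5:**
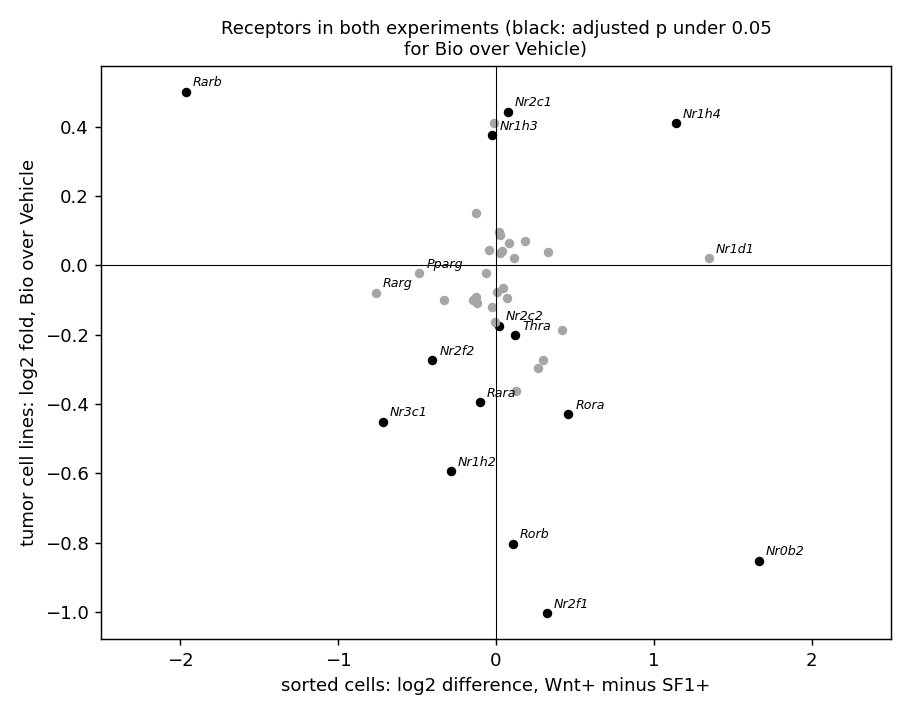
Log2 difference of the 42 receptors in sorted cells (Wnt+ minus SF1+, horizontal axis) and log2 fold of Bio over Vehicle in tumor cell lines from the authors' deposited table (vertical axis). The 14 black points have an adjusted p under 0.05 for Bio, 10 of them below 0, with Nr0b2 at the lower right and Rarb at the upper left.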

How the data were processed

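The deposited log2 expression values give 1 number per transcript cluster of the Mouse Gene 1.1 ST array. They came from RMA per the submitters' processing notes (oligo package). RMA corrects background, quantile-normalises arrays and so hides changes in total RNA, and compresses dim genes. The sources used here give neither versions nor the genome build. Per the labels' protocols, 5 ng of RNA per sort was amplified, and 4 sorts per genotype were made, of which 3 were analysed here for Wnt+. Also deposited were, per the file headers, the p-value of a t-test between the sorts and, for the Bio experiment, a fold (a linear ratio) with a paired p-value. A drawing sheet with 7 sample columns was not used, and neither was the authors' own Wnt+ over SF1+ fold, which was recomputed.

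Of 28944 clusters, 23812 had a symbol, and current symbols came from RefSeq (GRCm38.p6). The cluster with the highest mean stood for a gene, which left 20719 genes with no filter. The series value table held the same values within 5.00e-09. The fit used limma 3.58.1 under R 4.3.3 (lmFit and eBayes, prior degrees of freedom 1.98, two-sided), adjusted by Benjamini-Hochberg over all genes at 0.05, and the scripts were tested on simulated data. Intervals are 95% intervals of that fit. The number of arrays limits the precision. The receptors, gene lists and marker lists were chosen with earlier results of these data known. All 42 receptors are named, with every array's value for those at an unadjusted p under 0.05, those without overlap, the NR4A genes, Nr3c1 and Nr3c2, and up to 6 genes of each related list by smallest p. Fkbp5, Tsc22d3, Fosl1, Crabp1, Rarres2, Cyp26a1, Pdk4, Cd36, Plin2, Thrsp, Ncoa3, Crebbp, Ppargc1b, Tbl1xr1 and the arrays of further receptors were added after their values were seen. So were Dusp1, Abcg1, Srebf1, Bhlhe40, Arntl, Per1, Fosl2, Ier3, Egr2, Fos, Jun, Ier2, Klf2, Btg2 and Egr1. Some genes of the lists are not reported here by name. Plots used matplotlib 3.10.9 in Python 3.11.15. The alternatives tried were the replicate number as a block, dropping single arrays, a filter on dim genes, centring on array medians, repeated quantile normalisation, weights per array, robust moderation with a trend, averaging all clusters of a gene, and the t-test of the authors.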

Additional observations from a re-analysis of the deposited data

Results flagged for a closer look

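Esrra was at 2.99 in SF1+ replicate 3, apart from the other SF1+ arrays at 2.81 to 2.84, a gap of 0.832 of the group's range. Of 42 receptors tested this way in the 4 SF1+ arrays, it alone passed, and chance flags about 1 in 20 groups. The gene was dim in all arrays.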

How the results depend on the processing

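With each array left out in turn, 0 to 2 receptors passed the adjusted threshold, 3 to 5 were higher and 1 to 4 lower at an unadjusted p under 0.05, and 6 to 13 did not overlap. Those that passed were Nr0b2 and Rarb without Wnt+ replicate 1 (312 genes in all passed there) and Nr1d1 without SF1+ replicate 1 (76 in all). Lower receptors numbered 1 (Rarb) without SF1+ replicate 4, and those without overlap numbered 10 without Wnt+ replicate 1 or SF1+ replicate 1 and 13 without Wnt+ replicate 3, where fewer arrays overlap less often by construction. The replicate block left 1 lower receptor, Rarb, and 0 genes past the adjusted threshold in place of 53. SF1+ replicate 4 has no Wnt+ array of its number, so it adds nothing to the difference in that fit. The block differences therefore equal those without SF1+ replicate 4 (-0.20 for Nr4a2 and 0.29 for Thra in both). The block also leaves fewer degrees of freedom, so its lost calls are not an effect of pairing alone. The deviations of same-numbered arrays from their group means correlated at -0.217, 0.034 and -0.214, and no Wnt+ array correlated best with its own number. With so few arrays per group, these correlations cannot tell whether same-numbered arrays shared a sort day or batch. Under the other alternatives the first 3 counts were 0, 3 and 3 as with all arrays, and 6 receptors did not overlap wherever values were recomputed, while genes past the threshold numbered 221 without dim genes, 155 with trended and robust moderation, 33 with array weights, 27 after median-centring and 0 by the authors' t-test. Nr1h4 remained without dim genes only through its Wnt+ arrays, since its SF1+ mean of 2.73 lay below the array medians of 3.13 to 3.23. Its place in the counts of that alternative is therefore no support. The signs of Nr0b2, Nr1h4, Nr1d1, Rarb, Rarg, Nr3c1 and Pparg were the same under all alternatives. Signs of 17 receptors, all with a difference of at most 0.13 with 7 arrays, changed with an array left out: Nr1h3 -0.11 to 0.077, Nr1i2 -0.059 to 0.054, Nr2c1 -0.14 to 0.20, Nr2c2 -0.037 to 0.13, Nr2e1 -0.14 to 0.011, Nr2e3 -0.11 to 0.17, Nr3c2 -0.096 to 0.0075, Nr4a1 -0.069 to 0.36, Nr4a2 -0.20 to 0.22, Pgr -0.015 to 0.027, Esr2 -0.031 to 0.065, Hnf4g -0.019 to 0.10, Ppard -0.11 to 0.15, Rara -0.30 to 0.092, Thra -0.13 to 0.29, Thrb -0.058 to 0.12 and Vdr -0.17 to 0.10. Among the other alternatives, Nr1i2 was 0.0043, 0.0039 and 0.024 with the block, centring and array weights, Nr4a2 0.027 and 0.034 with the further quantile normalisation and array weights, Pgr -0.0077 with the quantile normalisation, and Thrb -0.058 with the block. Their cause was not tested. Signal limits the 18 receptors below the median of all genes, and Nr1h4 in its SF1+ arrays.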
